A study of Mus musculus with 3 samples.

Results

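The receptors described here are the inhibitory and CD28-family costimulatory receptors of T cells: Pdcd1, Icos, Ctla4, Cd28, Btla, Lag3, Tigit, Cd200, Havcr2 and Cd274. They were measured as the probe sets that the platform annotation assigns to 1 of these gene symbols alone, which gave 12 of the 45101 probe sets on the array, for 9 of the 10 genes. Icos had 3 probe sets, Cd28 had 2 and each of the other 7 measured genes had 1, while no probe set was annotated to Tigit, which is not analysed here. The samples were follicular regulatory T (Tfr) cells, a Foxp3-positive T cell type found in B cell follicles, sorted from C57BL/6 mouse spleens at day 8 after OVA immunization. The gate, after lineage depletion, used CD44, CXCR5, GITR, CD25 and CD4. The wild-type (WT) group was 1 array of RNA pooled from 4 mice, and the Rptor-null group was 2 arrays, labelled biological replicates, each of RNA pooled from 8 CD4-Cre Rptor fl/fl mice. Cre driven by Cd4 acts throughout the T lineage, so conventional T cells of these mice carried the deletion too. The labels give neither the age nor the sex of the mice, and state no Cre or floxed allele for the WT pool. Raptor, the product of Rptor, defines the kinase complex mTORC1, and the comparison asks how expression differs in Tfr cells of mice whose T cells lack it.

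CD28 and ICOS are activating receptors that recruit PI3 kinase when they bind CD80 and CD86, or ICOS ligand. CTLA-4 binds CD80 and CD86 more tightly than CD28 does and strips them from antigen-presenting cells, which is a main means by which regulatory T cells act. PD-1 (Pdcd1), BTLA, LAG-3, TIGIT and TIM-3 (Havcr2) dampen T cell activation, and follicular T cells are known for high PD-1 and ICOS. CD200 engages an inhibitory receptor on myeloid cells, and PD-L1 (Cd274) is a ligand of PD-1 that T cells and myeloid cells carry.

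Promoter sequences were taken from RefSeq tables of build GRCm38.p6, which held 7 of the 10 genes, without Icos, Cd28 and Lag3. The 250 bases before the annotated start are shown, 5′ to 3′ on the gene's strand, for Pdcd1 and Ctla4, which fell in the Rptor-null pools, and for Havcr2, the receptor with higher values there. Capitals mark GGAAA or its reverse complement TTTCC, the core bound by NFAT factors, which T cell receptor signalling activates. Pdcd1 is at chr1:94052554-94052803 on the minus strand, Ctla4 at chr1:60908775-60909024 on the plus strand and Havcr2 at chr11:46454681-46454930 on the plus strand.
Pdcd1: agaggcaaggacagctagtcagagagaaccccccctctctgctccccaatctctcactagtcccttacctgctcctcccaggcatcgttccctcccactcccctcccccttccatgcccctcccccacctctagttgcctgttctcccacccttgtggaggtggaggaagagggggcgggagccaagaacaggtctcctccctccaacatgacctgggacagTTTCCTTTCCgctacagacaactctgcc
Ctla4: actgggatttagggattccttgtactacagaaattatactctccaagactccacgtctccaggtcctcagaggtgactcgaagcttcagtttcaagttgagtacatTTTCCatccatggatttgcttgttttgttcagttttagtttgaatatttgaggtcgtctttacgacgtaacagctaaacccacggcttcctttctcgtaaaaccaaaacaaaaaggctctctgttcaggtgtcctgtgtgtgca
Havcr2: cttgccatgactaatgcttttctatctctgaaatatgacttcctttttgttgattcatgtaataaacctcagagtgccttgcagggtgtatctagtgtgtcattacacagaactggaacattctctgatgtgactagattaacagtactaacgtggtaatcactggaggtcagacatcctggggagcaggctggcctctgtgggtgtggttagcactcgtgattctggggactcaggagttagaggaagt
Pdcd1 held 2 adjoining cores, from base -28 to -24 and from -23 to -19 counted back from the start, and Ctla4 held 1, from -144 to -140. Havcr2 held none, but had a match to the AP-1 motif TGANTCA at -200 to -194. Both strands were searched. Among the 7 receptors with a sequence, 4 held the NFAT core on either strand, and so did 55.6% of the 32851 promoters in the table. Besides Pdcd1 and Ctla4 these were Cd274, which did not pass the test described below, and Tigit, which was not measured. Btla and Cd200, like Havcr2, held none. The AP-1 motif was in 1 of the 7 and in 6.7% of all promoters. These matches describe the letters only.

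Median intensity was 52.7 to 54.9 over the 3 arrays. Rptor, on its brighter probe set, read 365 for WT against 353 and 412 for the Rptor-null pools. The position of that probe set relative to the deleted part is not known, so it checks nothing about the deletion. The sort markers Tnfrsf18 (GITR) and Cxcr5 fell (log2 differences of -1.35 and -0.87, adjusted p = 0.00708 and 0.0152), while Cd44, Cd4 and Il2ra did not pass the test. Of 15 T cell identity genes 9 were called lower by the test described below (median -0.64) and of 16 regulatory T cell genes 9 were (median -0.65). By the same test 7.62% of all 12721 genes were called lower and 2.76% higher. Foxp3 itself read 752 in WT, 587 in Rptor-null pool 1 and 423 in pool 2 and did not pass the test (log2 difference -0.58, adjusted p = 0.119). Of 14 macrophage and monocyte genes 8 were higher (median 0.69), as were 4 of 7 basophil and mast cell genes (median 0.80). No B cell gene of the 7 tested was called, nor was any neutrophil gene of 7, and 2 of 9 NK cell genes were higher (median 0.059). Summed intensity over the measured T cell identity genes was 59390 in WT, 41430 in Rptor-null pool 1 and 40770 in pool 2, and over the macrophage genes 36930, 51090 and 57350. The defining macrophage genes Adgre1 and Csf1r read 602 and 7911 in the WT pool itself, and no marker was at 0. Some genes of the B cell, NK cell and neutrophil lists were also bright in that pool, with Ighm at 13180, Gzma at 11300 and S100a8 at 7644. Others of the same lists were dimmer there, with Cd79a at 62.7, Ncr1 at 398 and Elane at 90.3. For Gapdh, signal at the 3′ end over that at the 5′ end was 1.11 on the WT array, 1.95 on that of pool 1 and 2.58 on that of pool 2. For beta-actin the same ratio was 1.397, 2.655 and 2.866. The T cell and macrophage sums and the 3′ to 5′ ratios thus differed between the WT array and both Rptor-null arrays, as the receptor values did. Between the Rptor-null pools the receptors did not all follow these measures. The part of these measures in the receptor differences was not tested. The T cell scaling described below shifts all values of an array alike, so it cannot separate that part. In such sorted bulk samples, fewer cells of a type and less RNA per cell cannot be told apart.

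Of the 12 receptor probe sets, 6 were lower in the Rptor-null pools, 0 were higher and 6 did not pass the test, where called means an adjusted p of at most 0.05 in limma over all 27022 probe sets tested. The background was 6.11% of all probe sets called lower and 2.81% called higher. The 6 belonged to 4 genes: Pdcd1, Icos with all 3 of its probe sets, Ctla4 and Lag3. Counted by gene, with the brightest probe set standing for each, 4 of 9 were lower, against 7.62% of 12721 genes. Both Rptor-null arrays lay below WT for 11 of the 12 probe sets, against 43.9% of all probe sets. At least 2-fold lower in both arrays were 3 probe sets, Pdcd1 and a pair of Icos probe sets, against 0.659% of all. The median log2 difference was -0.61 over the 12 and -0.029 over all probe sets tested. Bright probe sets were called lower more often: 8 of the 12 were in the brightest of 5 equal bins of level, where 15.9% were called lower and the median difference was -0.13. At an unadjusted p under 0.05 stood 8 of the 12, with 7 lower and 1, Havcr2, higher.

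With 1 WT array, the residual spread was that between the Rptor-null arrays alone, and the same spread was taken to hold for WT. An exact one-sided permutation test of 1 array against 2 cannot go below p = 0.333. Without the mean-variance trend of limma all 6 calls were lost, at adjusted p between 0.0508 and 0.103, and across all probe sets 1 was then called lower and 1 higher. Of all calls, 68.5% were lower as deposited and 50.9% after quantile normalization, which left 4 receptor probe sets called.

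**Figure D1:**
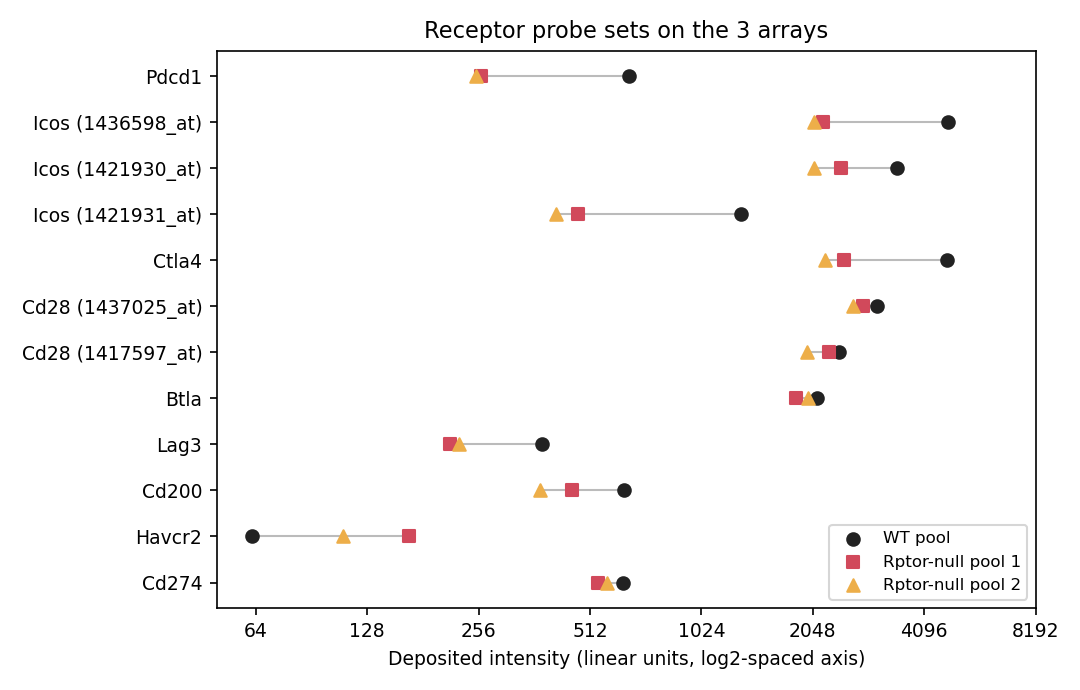
Deposited intensity (linear units on a log2-spaced axis) of each of the 12 receptor probe sets in the WT pool (circle), Rptor-null pool 1 (square) and Rptor-null pool 2 (triangle). Pdcd1, Icos, Ctla4, Lag3, Cd200, Cd274 and Cd28 on 1437025_at sit below WT in both Rptor-null pools by more than those pools differ from each other. Havcr2 alone sits above WT in both.

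**Figure D2:**
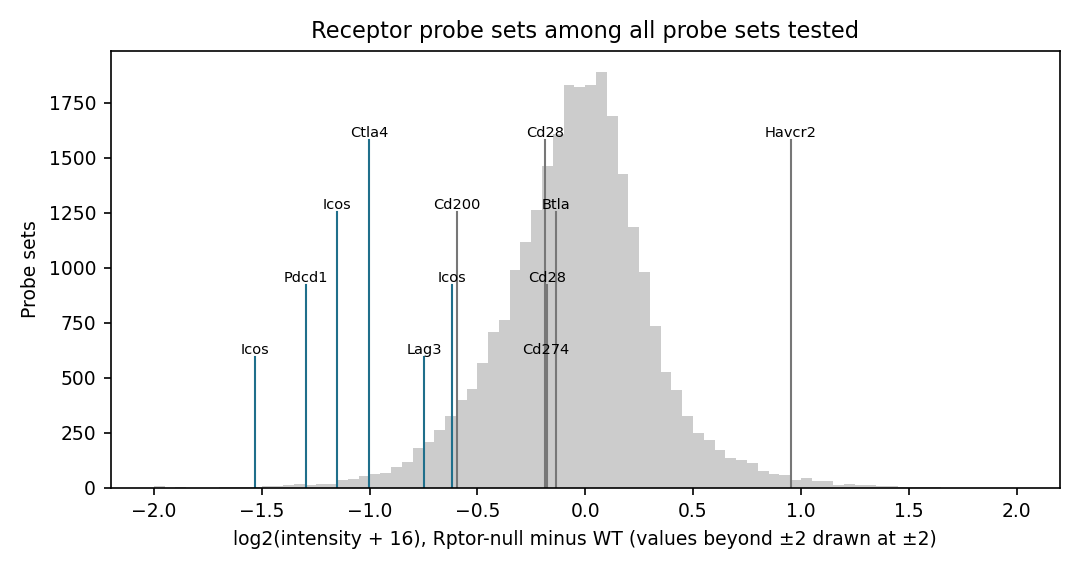
Histogram of the log2(intensity + 16) difference, Rptor-null minus WT, over the 27022 probe sets tested, with vertical lines at the 12 receptor probe sets (blue where called, grey where not; line heights only separate the labels). The Icos, Pdcd1 and Ctla4 lines from -1.53 to -1.003 lie in the far left tail, and the Cd28, Btla and Cd274 lines lie within the bulk.

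Pdcd1, which encodes PD-1, read 654 in WT, 261 in Rptor-null pool 1 and 253 in pool 2. Both Rptor-null pools lay below WT, as they did for 43.9% of all probe sets tested, and they were close together. The log2 difference was -1.30 ± 0.14 (SE; 95% interval -1.62 to -0.97; adjusted p = 0.01), a 2.46-fold lower level on the log2(intensity + 16) scale used for every fold here. Only 0.3% of all probe sets tested had a more negative difference. The adjusted p ranged from 0.0015 to 0.0508 over the 12 alternatives with a test and passed in 11. The lowest came from the T cell scaling described below.

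Icos was lower on each of its 3 probe sets, though by different amounts. The brightest, 1436598_at, read 4733 in WT, 2183 in Rptor-null pool 1 and 2067 in pool 2, 2.22-fold lower (log2 difference -1.15 ± 0.094 SE, adjusted p = 0.0074). Probe set 1421931_at read 1313 in WT and 474 and 415, the largest difference of the 12 (2.89-fold lower; -1.53 ± 0.13, adjusted p = 0.0074). Probe set 1421930_at read 3461 in WT and 2445 and 2068, or 1.54-fold lower (-0.62 ± 0.12, adjusted p = 0.0288). On all 3 both Rptor-null pools lay below WT. The 3 differences spanned 0.91 on the log2 scale, more than the SE of any, and which part of the transcript each probe set reads was not used here. The 3′ to 5′ ratios of the control genes also differed between the arrays, and their part in this spread was not tested. The call of 1421930_at held in 6 of its 10 alternatives with a test, over a range of adjusted p from 0.0169 to 0.903. It was lost with no filter on dim probe sets (adjusted p = 0.05003), after quantile normalization (0.0583) and without the variance trend (0.103). With the T cell scaling described below it was also lost, and the difference turned to 0.02 (adjusted p = 0.903).

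Ctla4, the inhibitory counterpart of Cd28, read 4713 in WT, 2485 in Rptor-null pool 1 and 2209 in pool 2. WT was again above both Rptor-null pools. The log2 difference was -1.003 ± 0.11 (SE; 95% interval -1.25 to -0.75; adjusted p = 0.01), or 2.00-fold lower, and 0.951% of all probe sets had a more negative one. In pool 1 it was -0.92, which kept the gene out of the count of probe sets 2-fold lower in both arrays.

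Cd28 did not pass the test on either of its probe sets. Probe set 1437025_at read 3058 in WT, 2794 in Rptor-null pool 1 and 2622 in pool 2, and 1417597_at read 2405, 2267 and 1970. Both Rptor-null pools were below WT on both probe sets, and on 1417597_at pool 1 lay nearer to WT than to pool 2. The log2 differences were -0.18 ± 0.095 (SE; 95% interval -0.40 to 0.049; adjusted p = 0.31) and -0.19 ± 0.11 (-0.46 to 0.088; adjusted p = 0.379), so the intervals reach from a fall of 0.46 to a rise of 0.088. The probe sets of Cd28 differed by 0.0097, unlike those of Icos.

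Cd28, Ctla4 and Icos are consecutive protein-coding genes on mouse chromosome 1 in RefSeq. Within each array, the log2 level of Icos minus that of Cd28 was lower than in WT by values of -0.98 and -0.97 in the Rptor-null pools. For Ctla4 minus Cd28 the same changes were -0.79 and -0.87, and for Icos minus Ctla4 they were -0.19 and -0.10. Icos and Ctla4 thus moved by like amounts on their brightest probe sets, and both moved away from Cd28. The likeness rests on that Icos probe set: the others had log2 differences of -0.62 and -1.53, against -1.003 for Ctla4. These contrasts between genes were not tested.

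Lag3, a CD4-related receptor for MHC class II, read 380 in WT, 214 in Rptor-null pool 1 and 227 in pool 2. WT was above both Rptor-null pools. The log2 difference was -0.75 ± 0.15 (SE; 95% interval -1.09 to -0.40; adjusted p = 0.0292), or 1.68-fold lower. After quantile normalization the adjusted p was 0.0508, within a range of 0.00748 to 0.606 over the alternatives, of which 9 of 12 with a test called it. Its neighbour in the genome, Cd4, read 696 in WT and 579 and 587 and did not pass the test (adjusted p = 0.255).

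Btla, whose ligand is the TNF receptor family member HVEM, read 2104 in WT, 1845 in Rptor-null pool 1 and 1986 in pool 2. The WT pool was the highest, and pool 2 lay nearer to it than to pool 1. The log2 difference was -0.14 ± 0.10 (SE; 95% interval -0.38 to 0.11; adjusted p = 0.469). Cd200, the gene next to Btla on chromosome 16, read 634 in WT and 457 and 375, with both Rptor-null pools below WT. Its log2 difference of -0.60 ± 0.16 (SE; 95% interval -0.97 to -0.23) did not pass the test (adjusted p = 0.0619). It passed in 4 of 12 alternatives, among them 1 probe set per gene (adjusted p = 0.0365) and median centring (0.0409), over a range of 0.0261 to 0.816.

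Havcr2, which encodes TIM-3 and is carried by macrophages as well as by T cells, was the only receptor with higher values in the Rptor-null pools. It read 62.5 in WT, 166 in Rptor-null pool 1 and 110 in pool 2. This is a dim probe set, and its Rptor-null pools lay farther apart on the log2 scale than those of any other receptor probe set. Both pools were above WT, and the log2 difference was 0.95 ± 0.24 (SE; 95% interval 0.38 to 1.53; adjusted p = 0.0576), short of the threshold. It was 1.22 in pool 1 and 0.69 in pool 2. The call depended on the setting: the adjusted p was 0.0326 with 1 probe set per gene, 0.0212 where probe sets were averaged by gene and 0.0447 with a 60th percentile filter. It was 0.0627 without probe sets that may match several transcripts. The range was 5.04e-08 to 0.0964, the lowest from the T cell scaling described below. Macrophage genes rose on the same arrays, with a median of 0.69 and Adgre1 (F4/80) at 602 in WT, 1047 in Rptor-null pool 1 and 1252 in pool 2, and the part of this in Havcr2 was not tested.

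Cd274, which encodes PD-L1, read 629 in WT, 538 in Rptor-null pool 1 and 568 in pool 2. Both were slightly below WT, with a log2 difference of -0.18 ± 0.12 (SE; 95% interval -0.47 to 0.11; adjusted p = 0.425). The gene next to it on chromosome 19 is Pdcd1lg2, which encodes PD-L2, the other ligand of PD-1. Pdcd1lg2 read 388 in WT and 175 and 160, and fell 2.20-fold (log2 difference -1.14 ± 0.16 SE, adjusted p = 0.0127). PD-1 and PD-L2 transcripts were thus both lower by over 2-fold, and the PD-L1 transcript was not called. The log2 level of Pdcd1 minus that of Cd274 changed by -1.06 and -1.18 within the Rptor-null arrays.

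**Figure D3:**
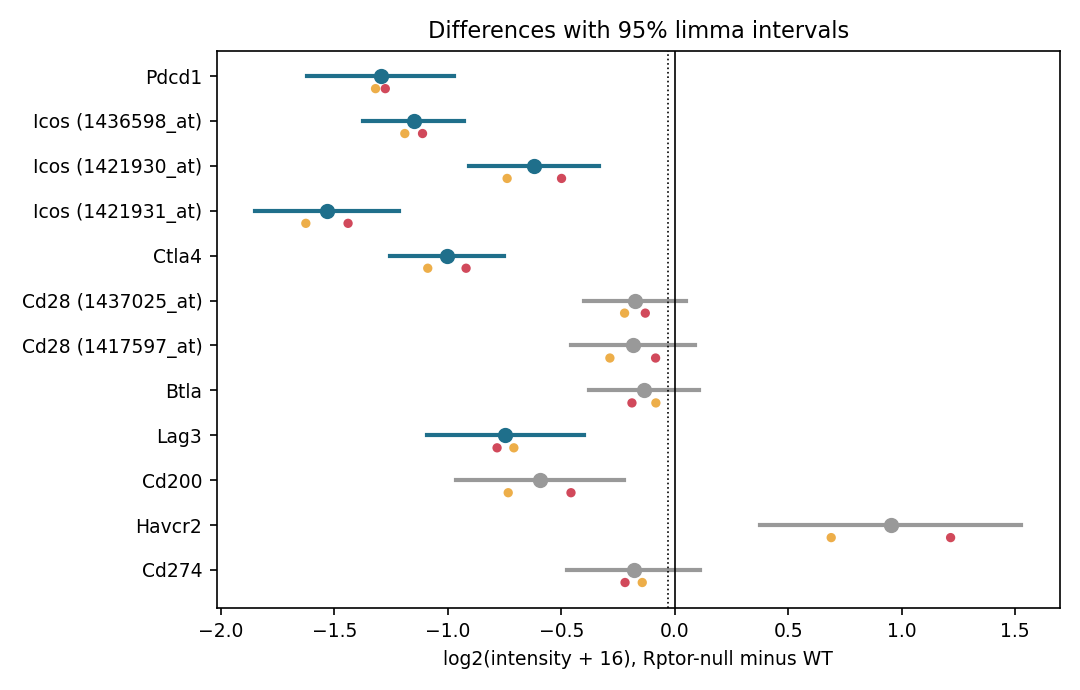
Log2(intensity + 16) difference, Rptor-null minus WT, of each receptor probe set (large point) with its 95% limma interval (line; blue where called, grey where not). Small points are Rptor-null pool 1 (red) and pool 2 (yellow) against WT, and the dotted line is the median of all probe sets at -0.029. Intervals of Pdcd1, Icos, Ctla4, Lag3 and Cd200 lie below 0, that of Havcr2 lies above, and those of Cd28, Btla and Cd274 cross it.

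The receptors were also set against T cell transcripts, by centring each array on the median of the 15 measured T cell identity genes. Those 15 ranged from -0.96 (Cd3g) to -0.05 (Thy1) as deposited, so the scale depends on which T cell genes are taken. On this scale Pdcd1 remained lower (-0.66 ± 0.18 SE, adjusted p = 0.0015), as did Icos on 1436598_at (-0.51 ± 0.16, adjusted p = 0.00427) and 1421931_at (-0.89 ± 0.17, adjusted p = 1.37e-05), and Ctla4 (-0.36 ± 0.16, adjusted p = 0.0367). The call of Lag3 was lost (-0.11 ± 0.19, adjusted p = 0.606), and the difference of Icos on 1421930_at turned to 0.02 ± 0.16 (adjusted p = 0.903). Cd28, Btla and Cd274 were higher in the Rptor-null pools relative to T cell transcripts, by 0.46 (both Cd28 probe sets, 0.455 and 0.465), 0.50 and 0.46, with adjusted p of 0.0101, 0.00837, 0.00418 and 0.0127. Havcr2 was higher by 1.59 (adjusted p = 5.04e-08). The variance prior was refitted on this scale, so its limma p-values are not comparable with those as deposited. For Pdcd1 the difference was smaller and its SE larger than as deposited (-1.30 ± 0.14), yet the adjusted p was lower (0.0015 against 0.01). The centring shifts every probe set alike: the median over all became 0.61, with 73.1% of all probe sets called higher and 0.788% called lower. The Cd28, Btla and Cd274 values lay below that median, so their calls show no more than the general level.

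**Figure D4:**
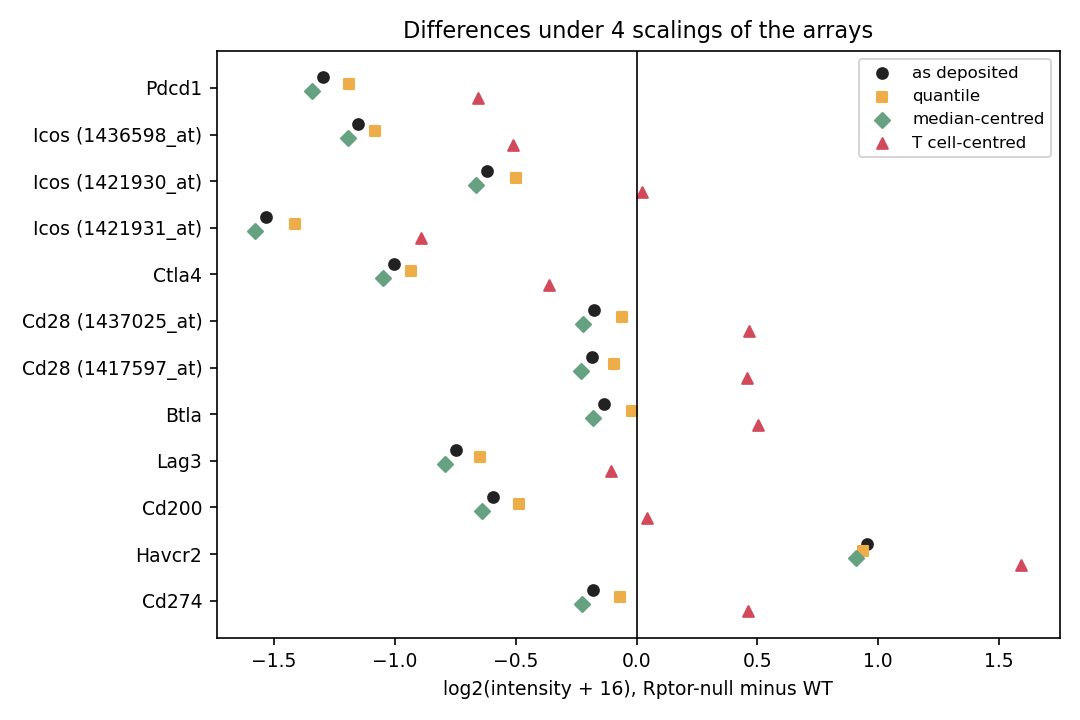
Log2(intensity + 16) difference, Rptor-null minus WT, of each receptor probe set under 4 scalings: as deposited (black circle), quantile (yellow square), median-centred (green diamond) and centred on T cell identity genes (red triangle). Under the first 3 the 12 probe sets keep their sign, and with the T cell scaling those of Cd28, Btla, Cd200, Cd274 and Icos 1421930_at turn above 0 while Pdcd1, Ctla4, Lag3 and the other Icos probe sets stay below.

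Among 17 measured ligands and binding partners of the receptors, 2 were lower and 2 higher, with a median of 0.14. The background by gene was 7.62% lower and 2.76% higher. The lower genes were Pdcd1lg2 and Lgals9, the latter encoding galectin-9, a ligand of TIM-3, which read 759 in WT, 378 in Rptor-null pool 1 and 291 in pool 2 (2.23-fold lower, adjusted p = 0.0159). Cd86, a ligand of CD28 and CTLA-4 on antigen-presenting cells, read 336 in WT and 696 and 784 (2.14-fold higher, adjusted p = 0.0111). The other of its 2 kept probe sets had a log2 difference of -0.18. Lgals3, which encodes galectin-3 and is abundant in macrophages, read 3204, 4990 and 5512 (1.63-fold higher, adjusted p = 0.0127).

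Signalling partners of the receptors were mostly not called, with 3 higher, 1 lower and 27 not past the test among 31 (median -0.12). The higher ones were Pik3cd, Gab2 and Pik3r1, of PI3 kinase signalling, with log2 differences of 1.55, 1.06 and 0.59 on their brightest probe sets. The 5 kept probe sets of Pik3cd ranged from -1.18 to 1.55 with 1 called in each direction, those of Gab2 (3) from 0.18 to 1.06 and those of Pik3r1 (4) from 0.0096 to 0.59, with 1 called in each. Dok2, an adaptor used by the CD200 receptor, was 1.49-fold lower (adjusted p = 0.0397).

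In the list of trafficking, turnover and mRNA control, 3 of 20 genes were lower and 2 higher (median -0.078). Lrba, which protects CTLA-4 from lysosomal degradation, read 891 in WT, 523 in Rptor-null pool 1 and 530 in pool 2 (1.67-fold lower, adjusted p = 0.0179), although its 3 kept probe sets ranged from -0.74 to 0.0023. Trat1, an adaptor that aids CTLA-4 transport to the surface and also counts among the T cell identity genes, was 1.71-fold lower (adjusted p = 0.0248) with its other kept probe set at -0.39, and Rab8a 1.91-fold lower (adjusted p = 0.0111) with its other kept probe set at 0.11. Itch, a ubiquitin ligase, was 1.37-fold higher on its brightest probe set (adjusted p = 0.0473). Its 3 probe sets on the array that were kept gave log2 differences between -0.13 and 0.46, and 1 was called.

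Transcription factors reported to act on these genes had 5 of 37 members lower and 4 higher (median -0.11). Tox2, a factor of follicular and exhausted T cells, read 2809 in WT, 991 in Rptor-null pool 1 and 1420 in pool 2 (2.35-fold lower, adjusted p = 0.0176). Batf, an AP-1 family factor needed for follicular helper T cells, read 1284, 669 and 629 (1.96-fold lower, adjusted p = 0.0111). Egr2 was 1.71-fold lower and was called on both of its kept probe sets, while Fosl2, another AP-1 family gene, was 1.76-fold higher on its brightest probe set (adjusted p = 0.0264) with the other at 0.086 and not called.

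Other costimulatory and inhibitory receptors, of the TNF receptor, SLAM and immunoglobulin families, were lower in 10 of 23 cases and higher in 1 (median -0.53). Tnfrsf18 read 3837 in WT, 1549 in Rptor-null pool 1 and 1453 in pool 2 (2.54-fold lower, adjusted p = 0.00708), Tnfrsf4 (OX40) 2402, 1317 and 1163, and Tnfrsf9 (4-1BB) 1078, 596 and 595. Nt5e, which encodes CD73, was 2.04-fold lower by the brightest probe set, but its 3 kept probe sets ranged from -1.03 to 0.11. Of the genes listed there, 5 also count as regulatory T cell markers and 3 as T cell identity genes. All of these but Entpd1, which read 193.2, 191.5 and 190.2, were called lower. The lists were chosen with results of these data known and are described by their counts alone.

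**Figure D5:**
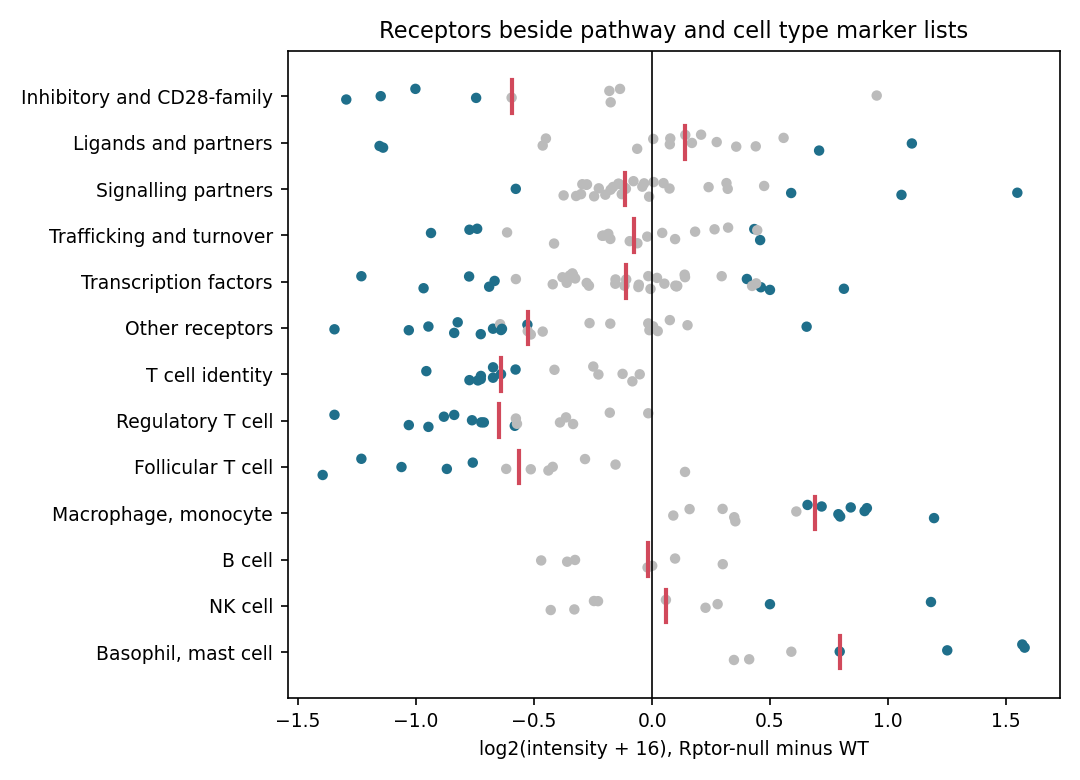
Log2(intensity + 16) difference, Rptor-null minus WT, of each gene's brightest probe set in the receptor group, 5 pathway lists and 7 marker lists (blue points called, grey points not called; red bar, list median; vertical scatter only separates points). The receptors (median -0.60) spread from -1.30 to 0.95, T cell and regulatory T cell lists lie below 0, and macrophage and basophil lists lie above it.

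Genes with the most similar pair of differences from WT were looked up among the other 12720 genes, by the Euclidean distance between their 2 log2 differences over the 3 arrays. For Pdcd1 they were Rfc3, of DNA replication (differences of -1.27 and -1.38; distance 0.060), and Tnfrsf18 (-1.30 and -1.39; distance 0.077). The nearest to Icos were Lrr1 (distance 0.0096) and the tetraspanin gene Cd37 (distance 0.011), each on its brightest probe set, while their other kept probe sets differed by 0.13 and -0.37. The nearest to Ctla4 were the mitotic kinase gene Aurkb (distance 0.017) and Acot7 (distance 0.024). With 3 arrays, 2 differences define each pattern.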

How the data were processed

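Total RNA extracted with TRIzol was labelled with biotin and hybridised to 3 single-colour Affymetrix arrays, per the labels' protocols. Values as deposited were linear intensities, 1 per probe set, which the authors had scaled. The submitters' processing notes list MAS5 with no version, and the background correction and scaling target are not given in the sources used here. No count gives the depth of an array, so the number of arrays limits the precision.

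Control probe sets (64) were set aside, as were the dimmest probe sets, up to the 40th percentile of level, where level is the mean of both group means (35.0 intensity units). All 12 receptor probe sets passed, each above that level on every array. Differences were fitted on log2(intensity + 16), which understates changes of dim genes, with limma 3.58.1 (lmFit, eBayes with a mean-variance trend) in R 4.3.3. The tests were two-sided, with Benjamini-Hochberg adjustment over 27022 probe sets. There was 1 residual degree of freedom beside 5.845 prior ones. The fit was tested on simulated data in which every array had the same level-dependent spread, so that test cannot check the spread assumed for WT.

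Of the non-control probe sets, 34945 named 1 gene, 932 several and 9160 were unnamed here. A listed gene was taken at its brightest kept probe set. The names given are every receptor, Rptor, the sort markers, up to 4 called genes per pathway list, ranked by the smaller of their differences in both Rptor-null arrays, and the nearest patterns. Adgre1, Csf1r, Cd3g, Thy1, Foxp3, Ighm, Cd79a, Gzma, Ncr1, S100a8 and Elane were named after their values were seen. The receptors and lists were chosen with earlier results of these data known. The 14 alternatives covered pseudocount, filter, scaling, unit of the test, variance prior, cross-matching probe sets and left-out arrays.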

Additional observations from a re-analysis of the deposited data

How the results depend on the processing

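The calls of Pdcd1, Ctla4 and Icos on 1436598_at held in 11 of 12 alternatives with a test, that without a variance trend being the exception. The 11 share the same WT array and include the T cell scaling, whose p-values are not comparable with those as deposited. Without the trend limma called 0 receptor probe sets lower, against 6 with the trend, and 7 were lower at an unadjusted p under 0.05. Receptor probe sets called higher numbered 1 with the 60th percentile filter, 1 with 1 probe set per gene and 1 where probe sets were averaged by gene, each time Havcr2. With centring on T cell identity genes 5 were called higher, 0 were 2-fold lower in both arrays, 1 was 2-fold higher in both, and the median difference turned to 0.033. In that scaling the differences that turned were those of Icos on 1421930_at (0.022), Cd28 (0.46 on each probe set, 0.465 and 0.455), Btla (0.50), Cd200 (0.045) and Cd274 (0.46), and the shift of all probe sets is its own construction. With either Rptor-null array left out, 3 to 4 probe sets were 2-fold lower, 0 to 1 2-fold higher, and the median difference was between -0.72 and -0.48. Those settings leave 1 array against 1, so calls could not be tested. Without Rptor-null pool 2, the 2-fold higher probe set was Havcr2. Over all probe sets, calls lower and higher were 1651 and 759 as deposited, 969 and 454 with no filter, 913 and 880 after quantile normalization, 213 and 19754 with the T cell scaling, and 1 and 1 without a variance trend. The cause of the changes with filter and prior was not tested. No paired analysis was possible because the WT group has 1 array. With 1 WT array its own error cannot be measured.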
